A study of Drosophila melanogaster with 2 samples.

Results

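Oxidative phosphorylation genes were taken as the nuclear protein-coding genes whose symbols start with ND-, COX in capitals, UQCR-, ATPsyn or Sdh, which gave 88 of the 13968 nuclear protein-coding genes of the gene models. By complex, 40 belonged to complex I, 8 to complex II (one of them, Sdhaf3, is an assembly factor and not a subunit), 9 to complex III, 16 to complex IV and 15 to complex V. Subunits under other names, such as blw of complex V and levy of complex IV, fall outside this rule and are described below. Counts by complex leave them out. Of the symbols, 20 ended in L, a mark of paralogues of which many are known in Drosophila to be expressed mainly in the testis, and 4 more carried an L and a number (ND-51L1, ND-51L2, COX6AL2 and COX7AL2). These 24 are called L forms below. The data were peak lists from chromatin immunoprecipitation followed by sequencing (ChIP-seq) with an antibody against GFP in whole Drosophila melanogaster embryos aged 8 to 24 hours, from a strain with an insertion that fuses CG16779 to eGFP. There was 1 group with 2 biological replicates and no second condition, so no comparison between conditions and no p-value could be made. Whole embryos hold many cell types, so binding in a few cells and weaker binding in many cannot be told apart, and the labels do not say whether untagged CG16779 was also present.

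Oxidative phosphorylation takes place at the inner mitochondrial membrane. Complexes I and II pass electrons from NADH and succinate to ubiquinone, complex III passes them on to cytochrome c, and complex IV passes them to oxygen. Complexes I, III and IV pump protons, and complex V, the ATP synthase, uses the return of those protons to make ATP. Most of the subunits are encoded in the nucleus by genes scattered over the chromosomes, and their output has to be matched to that of the subunits encoded in the mitochondrial genome.

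CG16779-eGFP peaks were no more frequent at these genes than at genes in general. A gene is called bound here when the summit of a conservative peak, meaning one with an irreproducible discovery rate (IDR, a score of how repeatably a peak ranks in both replicates) of at most 0.01, lay within 500 bp of any of its transcription start sites (TSSs). The 7 bound genes (7.95% of 88, against 11.3% of all nuclear protein-coding genes) were ND-ASHI, ND-24, ND-51 and ND-MWFE of complex I and COX6B, COX8 and COX5B of complex IV. Among the 88, no gene of complexes II, III and V was bound, nor was any of the 24 L forms. In the list made from the pooled reads 8 of the 88 were bound (9.09%, against 11.9% of all genes), in the own list of replicate 1 there were 3 (3.41%, against 6.47%) and in that of replicate 2 there were 5 (5.68%, against 6.62%). Only ND-ASHI was in the own lists of both replicates. ND-24 and COX6B were also in that of replicate 1, COX8, COX5B and ND-51 were also in that of replicate 2, and ND-MWFE was in neither.

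All 7 summits lay upstream of the nearest TSS of the bound gene, at a median of 141 bp, and each of the 7 had a start of another protein-coding gene within 500 bp as well. Over the 1583 bound genes of the genome the corresponding shares were 69.9% upstream and 46.7% shared, with a median distance of 101 bp. Each of the 7 summits stood between start sites that point away from each other, one of the oxidative phosphorylation gene and one of its neighbour, an arrangement that held for 37.7% of all bound genes. That arrangement was looked for after the positions had been seen, and it rests on the nearest TSS of each gene. The ND-24 summit, for example, lay 118 bp downstream of the 5'-most TSS of ND-24. A separate count took genes with a divergent neighbour, with a distance limit of 1000 bp. It held 5 of the 7 bound genes (71.4%), without ND-ASHI and ND-MWFE. It also held 791 of the 1583 bound genes of the genome, 37 of the 88 genes (42.0%) and 33.3% of all genes. A peak near the starts of several genes cannot be assigned to one of them from these data. When a summit was given to its closest gene alone, ND-ASHI, ND-24 and COX8 were left, 3 of 88 (3.41%, against 8.98% of all genes). That counting kept 3 of the 7 bound genes (42.9%) and 1255 of the 1583 in the genome (79.3%).

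**Figure D1:**
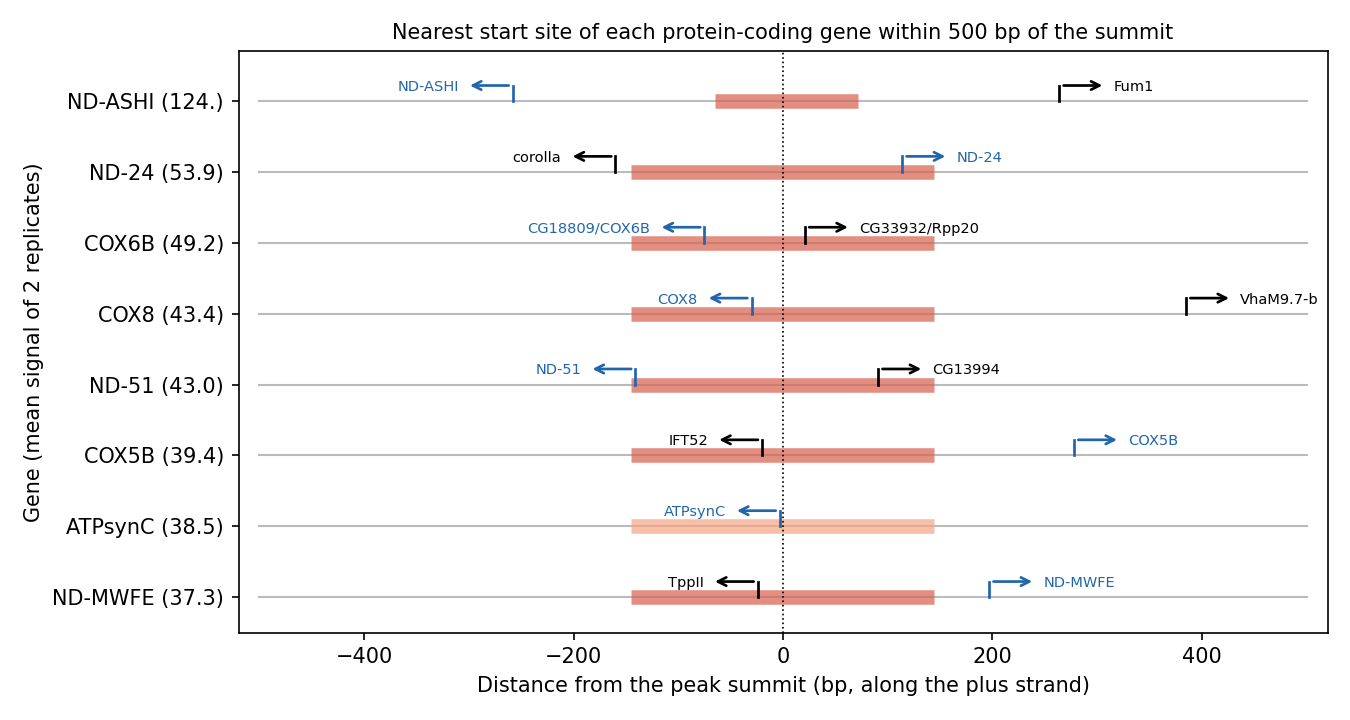
Map of the 7 conservative peaks at oxidative phosphorylation genes and of the ATPsynC peak (paler bar), which is absent from the conservative list, ordered by the mean signal of the 2 replicates given in parentheses. The x axis is the distance in bp from the summit along the plus strand, bars are the peaks, and arrows are the nearest TSS of each protein-coding gene within 500 bp (blue for the named gene, black for its neighbours), pointing in the direction of transcription. In 7 of the rows a leftward start lies to the left of the summit and a rightward start of another gene to its right, and ATPsynC has no protein-coding neighbour within 500 bp.

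The sequence under 4 of the 7 summits is shown because these are the 4 strongest peaks and include the lowest and the highest GC content of the 7. Each stretch is the plus strand of the reference genome (RefSeq, release 6, the build of the peak lists), read within 50 bp of the summit and cut back to bases outside annotated exons. Capitals mark the TATA letters on the opposite strand at ND-ASHI and Motif 7, a core promoter element, at COX8, where the first printed base is the start site itself. ND-ASHI spans chrX:6679326-6679426, ND-24 chrX:17632180-17632253, COX6B chrX:19744360-19744430 and COX8 chr3L:21539447-21539527.
ND-ASHI: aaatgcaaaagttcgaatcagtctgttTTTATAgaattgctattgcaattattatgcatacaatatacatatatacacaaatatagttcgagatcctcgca
ND-24: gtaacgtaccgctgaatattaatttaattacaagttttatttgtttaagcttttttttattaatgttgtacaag
COX6B: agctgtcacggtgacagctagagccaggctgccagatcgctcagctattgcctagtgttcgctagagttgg
COX8: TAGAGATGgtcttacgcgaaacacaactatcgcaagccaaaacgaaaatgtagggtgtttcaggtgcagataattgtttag
These stretches had GC contents of 28.7%, 23.0%, 56.3% and 40.7% in this order. Over the full 101 bp around each summit, GC content ran from 18.8% at ND-24 to 57.4% at COX6B, with 26.7% at ND-MWFE, 28.7% at ND-ASHI, 37.6% at ND-51, 39.6% at COX8 and 49.5% at COX5B, against a median of 44.6% over the 2516 conservative summits. No base composition was common to the 7.

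Strength was measured as the deposited signal of the peak in each replicate, on the peak caller's own scale, which is not given in the sources used here. The combined signal is the value deposited for the peak from both replicates, and a mean ± SD is over the 2 replicates (n = 2). To include genes that were not bound, the strongest peak within 500 bp of a TSS was also taken from the ranked list, which holds peaks of any IDR. Such a peak stood at 73 of the 88 genes (83.0%, against 82.9% of all genes). Their combined signal ran from 2.66 at ATPsynD to 253 at ND-ASHI with a median of 35.9, against 36.1 over the 11575 genes with such a peak. By replicate the medians were 18.5 and 18.2, against 18.8 and 18.4 over those genes. A ranked peak with an IDR up to 0.05, a limit chosen after seeing the data, stood at 12 of the 88 genes. The share was 13.6%, against 19% of all genes. The highest IDR in the ranked list, 0.737, was that of ND-13A, UQCR-14L, COX6AL2 and ATPsynD, among others. Medians and orders over ranked peaks therefore include many peaks of low repeatability and are not degrees of binding.

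**Figure D2:**
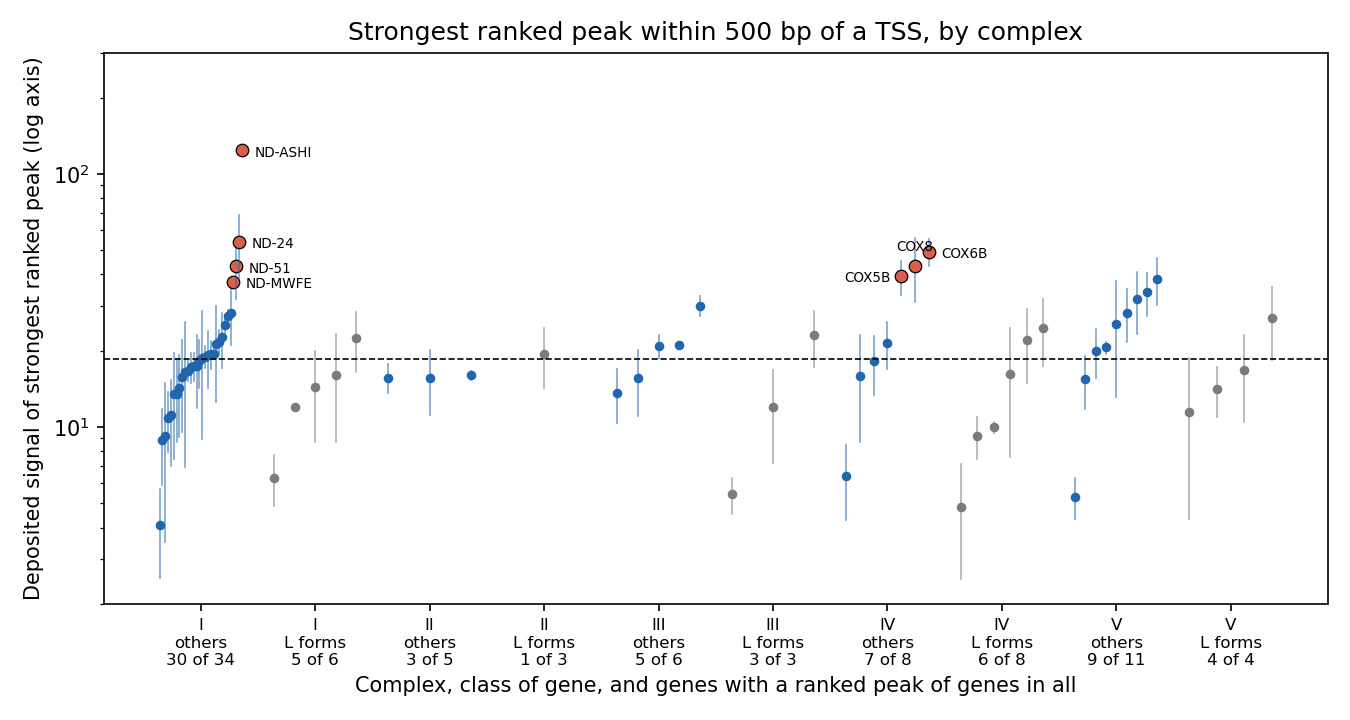
Signal of the strongest ranked peak within 500 bp of a TSS for the 73 oxidative phosphorylation genes that have one, by complex, with L forms (grey) beside the other genes (blue). Points are means and vertical lines join the 2 replicates on a log axis of the deposited signal, red points are the bound genes, the dashed line is the mean of the medians of the replicates over all genes, and the counts under each column give genes with a ranked peak of genes in all. The 7 bound genes stand at the top of complexes I and IV, and no L form lies above 27.0.

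Complex I held the strongest peak of all. It lay at ND-ASHI (FBgn0029888), the fly counterpart of the accessory subunit NDUFB8, with signals of 119 in replicate 1 and 128 in replicate 2 (124 ± 6.12, combined signal 253, IDR 3e-05). The replicates were close to each other and both stood far above any other oxidative phosphorylation gene. The peak (X, 6679311 to 6679448, 138 bp wide) ranked 117 of the 2516 conservative peaks and its signal stood at percentile 99.1 of the genes with a ranked peak. Its summit lay 258 bp upstream of the ND-ASHI start, in an intron of Fum1, which encodes fumarase of the tricarboxylic acid cycle. A TSS of Fum1 lay 264 bp from the same summit. The summit was thus nearly midway between a start of ND-ASHI and a start of Fum1, but inside Fum1 and not between the genes.

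The other 3 bound complex I genes had weaker peaks, and the replicates of 2 of them differed more. ND-24 (FBgn0030853), an iron-sulfur subunit of the NADH-oxidising arm (NDUFV2 in mammals), had 69.0 in replicate 1 and 38.8 in replicate 2 (53.9 ± 21.4, combined 101, IDR 0.00102, rank 863; X, 17632062 to 17632351). The summit lay in an intron of ND-24 itself, 114 bp upstream of its nearest TSS, 118 bp downstream of its 5'-most TSS and 160 bp from a TSS of corolla, a gene of the synaptonemal complex. ND-51 (FBgn0031771), the flavoprotein that takes electrons from NADH (NDUFV1 in mammals), had the opposite order, with 32.0 in replicate 1 and 54.0 in replicate 2 (43.0 ± 15.6, combined 67.7, IDR 0.00328, rank 2066; 2L, 6062753 to 6063042). The summits of the replicates lay 171 bp apart there, the widest gap among the 7, and the peak stood 141 bp from the ND-51 start and 91 bp from that of CG13994. ND-24 and ND-51 encode partner subunits of the same electron entry site. ND-MWFE (FBgn0085468), an accessory subunit of the membrane arm (NDUFA1 in mammals), had 35.96 and 38.7 (37.3 ± 1.94, combined 68.9, IDR 0.00335, rank 1993; 2R, 13158324 to 13158613). Its SD was the smallest of the 7, but it was in the own list of neither and was not in the list from pooled reads. The summit stood 197 bp from its start and 24 bp from a TSS of TppII, a tripeptidyl peptidase gene, in an intron of that gene.

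The remaining 36 genes of complex I were not bound. The median combined signal over the 35 complex I genes with a ranked peak was 35.9, which is that of the whole set of 73. Just below the bound genes came ND-B17, an accessory subunit, with 35.4 in replicate 1 and 21.0 in replicate 2 (28.2 ± 10.2, combined 55.6), and ND-ACP, the mitochondrial acyl carrier protein, with 29.1 and 25.8 (27.5 ± 2.28, combined 53.9, IDR 0.0287). At the low end ND-13A, an accessory subunit, had 2.52 and 5.66 (4.09 ± 2.22, combined 6.94), with the summit in its coding exon. No ranked peak lay near ND-49, a core subunit of the arm that hands electrons to ubiquinone, or near ND-49L, ND-AGGG, ND-MLRQ and ND-PDSW.

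Complex II, succinate dehydrogenase, is shared between the respiratory chain and the tricarboxylic acid cycle. None of its 8 genes was bound and 4 had a ranked peak, with a median combined signal of 35.8. By combined signal SdhB, the iron-sulfur subunit, was the lowest with 13.6 in replicate 1 and 17.7 in replicate 2 (15.7 ± 2.88, combined 30.0). Its paralogue SdhBL was the highest with 24.6 and 14.3 (19.4 ± 7.33, combined 38.9). The replicates put these 2 genes in opposite orders, with SdhBL the higher in replicate 1 and SdhB in replicate 2. The membrane anchor genes SdhC (combined 36.4) and SdhD (35.2) lay between them. No ranked peak stood near SdhA, the flavoprotein that oxidises succinate, or near SdhAL, SdhCL and the assembly factor Sdhaf3.

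Complex III, the cytochrome bc1 complex, also had no bound gene among the 9 counted here, of which 8 had a ranked peak, with a median of 34.8. UQCR-C2, a core protein of its matrix side, came nearest, with 27.3 in replicate 1 and 32.8 in replicate 2 (30.0 ± 3.84, combined 53.7) and an IDR of 0.0156, above the threshold of 0.01. That summit lay 397 bp from its TSS in a coding exon of Rpn12, a proteasome lid gene. UQCR-C1, the partner core protein, had 20.8 and 21.3 (21.0 ± 0.362, combined 43.5). The lowest was UQCR-14L with 4.54 and 6.29 (5.42 ± 1.24, combined 7.21), in a coding exon of Mst98Cb, and UQCR-11 had no ranked peak.

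Complex IV, cytochrome c oxidase, had 3 of its 16 genes bound (18.8%, against 11.3% of all genes), all among the 8 that are not L forms (37.5%). COX6B (FBgn0031066), a subunit on the side of the enzyme that faces cytochrome c, had 55.1 in replicate 1 and 43.2 in replicate 2 (49.2 ± 8.37, combined 92.0, IDR 0.00104, rank 1055; X, 19744265 to 19744554). Its summit lay 75 bp from a start that COX6B shares with CG18809 and 21 bp from a start that Rpp20, a subunit of ribonuclease P, shares with CG33932, so 4 genes lie at this one peak. COX8 (FBgn0263911), a small membrane subunit, had 31.2 and 55.5 (43.4 ± 17.2, combined 80.9, IDR 0.00362, rank 1395; 3L, 21539332 to 21539621). Of the 7 its summit was the nearest to the start of its gene, at 30 bp upstream, the summits of the replicates were 4 bp apart, and VhaM9.7-b, a subunit of the vacuolar proton pump, starts 385 bp away. COX5B (FBgn0031830), a nuclear-encoded subunit on the matrix side, had 33.3 and 45.4 (39.4 ± 8.54, combined 71.9, IDR 0.00334, rank 1837; 2L, 6557377 to 6557666). Here the summit stood 278 bp from COX5B and only 20 bp from IFT52, which encodes a protein of intraflagellar transport.

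The median combined signal over the 13 complex IV genes with a ranked peak, the 3 bound ones included, was 33.1, and over the 7 of them that are not L forms it was 39.9, against 36.1 over all genes. COX5A, another matrix-side subunit, was called in the own list of replicate 2 and in no other thresholded list. Its strongest ranked peak, in its own coding exon, had 22.95 in replicate 1 and 13.4 in replicate 2 (18.2 ± 6.74, combined 33.1), which is the lower value in the replicate whose own list holds a peak. Whether this ranked peak and the peak of that own list are the same is not known from these values. The lowest combined signal of the complex, 10.6, was at COX6AL2, with 7.45 and 10.9 (9.17 ± 2.44), although COX7CL (7.12 and 2.51) and COX7B (4.28 and 8.51) were lower in both replicates. COX4, COX4L and COX6CL had no ranked peak.

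**Figure D3:**
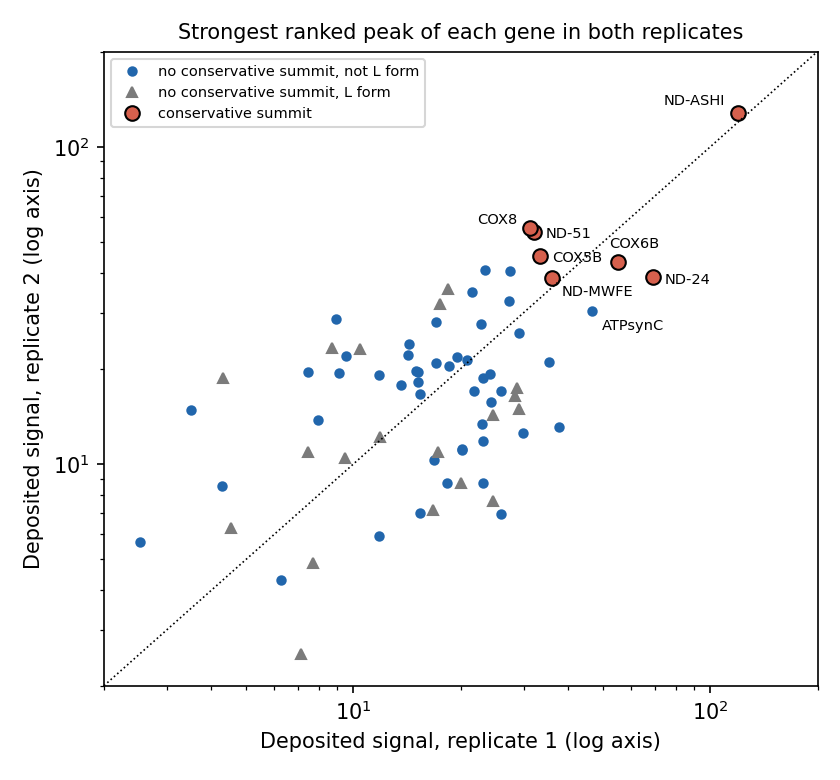
Signal of the strongest ranked peak in replicate 1 (x axis) and replicate 2 (y axis), both log axes of the deposited signal, for the 73 genes with a ranked peak. Red circles are the 7 bound genes, blue circles other genes that are not L forms, grey triangles L forms, and the dotted line marks equal signals. ND-ASHI lies near the line at 119 and 128, ND-24 and COX6B lie below it, and COX8, COX5B, ND-51 and ND-MWFE lie above it.

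Complex V, the ATP synthase, had no bound gene among the 15 counted here, which leave out its subunit blw, bound and described below. Of the 15, 13 had a ranked peak, with a median combined signal of 48.1, against 36.1 over all genes, whose upper quartile was 51.5. That median was the highest of the 5 complexes. By replicate this order did not hold throughout. In replicate 1 the median of complex V was 19.5, below the 23.0 of complex IV and the 20.5 of complex III, and in replicate 2 it was 21.7, the highest of the 5. Several of its genes lay just outside the conservative list. ATPsynC, which encodes the subunit of the rotating membrane ring, had 46.6 in replicate 1 and 30.3 in replicate 2 (38.5 ± 11.6, combined 74.2; 3R, 31219488 to 31219777), with a summit 3 bp from its TSS. Its IDR of 0.00456 is below the threshold, yet the peak is not in the conservative list. The same holds for 103 of the 2619 ranked peaks on the chromosome arms with an IDR of at most 0.01 (3.93%). With these peaks added, ATPsynC became the eighth gene (8 of 88, 9.09%, against 11.7% of all genes). ATPsynE, a small membrane subunit, had 27.5 and 40.7 (34.1 ± 9.37, combined 64.5) with an IDR of 0.01002, the nearest value above the threshold, 46 bp from its start and 333 bp from that of Afti. Inside the threshold, the highest IDR among the 7 bound genes was 0.00362 at COX8.

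Both ATPsynE and ATPsynCF6, coupling factor 6 of the stator, were bound in the list from pooled reads. ATPsynCF6 had 23.3 in replicate 1 and 40.9 in replicate 2 (32.1 ± 12.5, combined 62.3, IDR 0.0278), 80 bp from its start and 134 bp from that of Sec13, a coat protein gene. In both genes replicate 2 had the higher signal. ATPsyngamma, the central shaft, had 37.7 and 13.1 (25.4 ± 17.4, combined 57.9, IDR 0.4665), far higher in replicate 1, with the summit in its own coding exon. ATPsynD, a stator subunit, had the lowest combined signal of the 88 genes, with 6.25 and 4.32 (5.29 ± 1.37, combined 2.66) in a coding exon of mRpL55, a mitochondrial ribosomal protein gene. ATPsynbeta, the catalytic subunit, and ATPsyndelta, of the central stalk, had no ranked peak.

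With every ranked peak of an IDR up to 0.05 counted in place of the conservative list, an alternative chosen after seeing the data, 12 of the 88 genes had a peak within the same distance (13.6%, against 19% of all genes). The added genes were ND-ACP, UQCR-C2, ATPsynE and ATPsynCF6, with IDRs above 0.01, and ATPsynC, whose IDR is below 0.01 and which entered through the change of list. Complex V then had 3 genes, complex III 1 and complex I 5. Complex II and the L forms remained at 0.

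**Figure D4:**
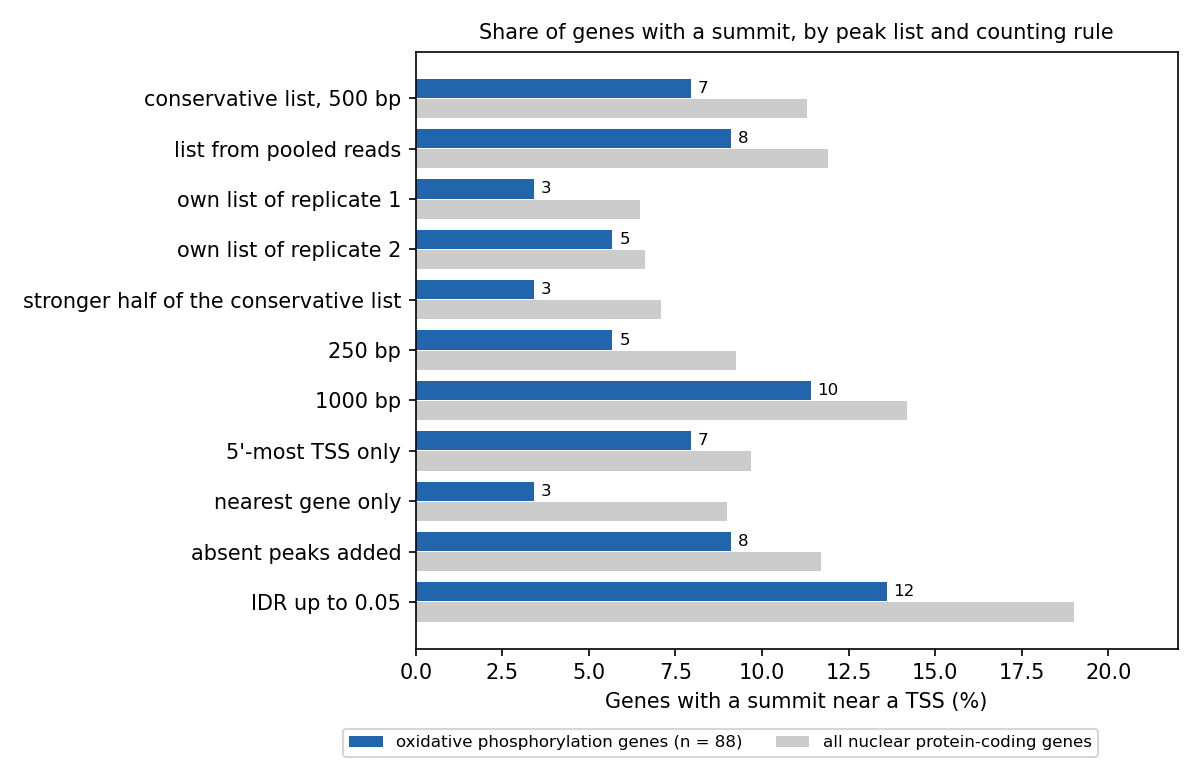
Percentage of the 88 oxidative phosphorylation genes (blue) and of all nuclear protein-coding genes (grey) with a summit near a TSS, by peak list and counting rule, with the number of oxidative phosphorylation genes at the end of each blue bar and the axis starting at 0. Except where a distance is given, the distance is 500 bp, and the share of oxidative phosphorylation genes lies below that of all genes in each of the 11 settings, for example at 7.95% and 11.3% in the conservative list.

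The L forms had no thresholded peak in any of the 4 lists. Among the 20 with a symbol ending in L, 15 had a ranked peak, with a median combined signal of 30.9 and a range of 7.21 to 53.95. The 4 numbered forms all had one, with a median of 16.7. The medians were 27.3 over the 19 L forms with a ranked peak and 37.0 over the 54 other genes with one, against 36.1 over all genes. The L form with the highest combined signal was ATPsynbetaL with 18.5 in replicate 1 and 35.6 in replicate 2 (27.0 ± 12.1, combined 53.95), while ATPsynbeta itself had no ranked peak. Next came COX6AL (combined 51.7) and ND-B14.5AL (49.7). Of the 20 L forms whose namesake without the L is also among the 88, 14 pairs had a ranked peak at both genes. The namesake had the higher combined signal in 9 of these pairs, which include ND-24 with 101 against 15.6 at ND-24L and COX5B with 71.9 against 32.2 at COX5BL. The L form was the higher in 5, for example ND-20L with 31.7 against 20.8 at ND-20. Some of these pairs share a namesake (ND-51 and COX7A), and both orders occurred. The replicates disagreed on the order for SdhB and SdhBL, UQCR-6.4 and UQCR-6.4L, COX7A and COX7AL, and ATPsynG and ATPsynGL. The COX5BL peak lay within the COX5B gene.

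Where the summits lay differed between bound and other genes. Of the 66 ranked peaks at genes that were not bound, 42 had the summit in a coding exon (63.6%), 11 in an intron, 9 in a 5' UTR and 4 in intergenic sequence. Over all genes of the genome that were not bound but had a ranked peak, 43.2% were in coding exons, 12.8% in introns and 22.6% in intergenic sequence. The median distance to the TSS was 279 bp for these 66 genes, against 214 bp over all such genes. Of the 7 bound genes 4 had an intergenic summit and 3 an intronic one, and none had one in a 5' UTR or a coding exon. Over all bound genes the shares were 43.2% intergenic, 18.1% intronic, 32.8% in a 5' UTR and 4.93% coding. On the X chromosome lay 3 of the 7 (42.9%), the 3 strongest by combined signal, whereas 14.8% of the 88 genes, 15.7% of all genes and 11.9% of all bound genes did.

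Promoter letters were counted in the 300 bp from 250 bp before to 50 bp after the 5'-most start of each gene, on both strands, as a description of sequence and not of factor sites. The letters searched were TATCGATA (the DNA replication-related element, DRE), TTACATAA, TTACGTAA, TTATATAA or TTATGTAA (the nuclear respiratory gene or NRG element), GGTCACAC (the core of Motif 1), CATCNCTA or CACCNCTA (called Motif 7 here). Shares of Motif 7 are those of these letters and not of every form of that element. The others were GAGAG, called the GAGA letters here, the core of the TATA box, which reads TATAAA, and the E-box, for which the letters searched were CACGTG. A stretch could count for both the NRG element and TATA where their letters overlap. Motif 1 was the one most above its share in all promoters, at 16 of the 88 genes (18.2%, against 7.69%). Among the 64 genes that are not L forms it stood at 15 (23.4%), among them COX5B, ND-MWFE and ATPsynC, and among the L forms at 1, COX7AL (4.17%). DRE stood at 10.2% of the 88 promoters against 9.36% of all, the NRG element at 6.82% against 5.18%, Motif 7 at 11.4% against 9.23%, TATA at 55.7% against 45.8%, GAGA at 22.7% against 29.7% and the E-box at 4.55% against 4.20%. DRE, the NRG element and Motif 7 stood at 14.1%, 9.38% and 15.6% of the 64 other promoters and at none of the 24 of L forms. GAGA went the other way, with 41.7% of L form promoters and 15.6% of the others.

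At the bound genes, Motif 7 stood in 3 of the 7 promoters (42.9%), those of ND-MWFE, COX6B and COX8, against 14.3% of the 1583 bound genes. TATA stood in 3 of the 7 promoters (against 40.8%), Motif 1 in 2 (28.6%, against 8.78%) and GAGA in 1 (14.3%, against 35.4%). DRE, the NRG element and the E-box stood in 0 of the 7 (against 11.8%, 5.05% and 5.31%). With 7 genes each of these shares rests on few promoters. Within 50 bp of the 7 summits Motif 7 was found only at COX8, in the stretch printed above (2.62% of all conservative summits hold it). TATA was found at ND-ASHI and ND-MWFE (12.2% of all summits). DRE, the NRG element, Motif 1, GAGA and the E-box were found at none of the 7 summits, against 1.59%, 0.994%, 0.835%, 15.1% and 1.07% of all summits.

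A wider set of genes outside the naming rule had peaks at a higher share than the 88, in lists drawn up with results of these data known. The set held 11 electron carriers and subunits under other names and 8 assembly factors. It also held 12 genes of the tricarboxylic acid cycle and 7 regulators, so its share is not that of oxidative phosphorylation alone. Of 38 such genes found in the annotation, 11 were bound (28.9%, against 11.3% of all genes). Among 11 electron carriers and subunits under other names there were 3 (27.3%). They were blw, the alpha subunit of the ATP synthase, with 71.7 in replicate 1 and 65.6 in replicate 2 (68.7 ± 4.30, combined 146), Cyt-c-d, the cytochrome c used in the testis, with 59.2 and 63.9 (61.6 ± 3.30, combined 134), and levy, subunit VIa of cytochrome c oxidase, with 49.3 and 68.2 (58.8 ± 13.3, combined 122). All 3 had a higher combined signal than every bound gene of the 88 except ND-ASHI. The blw peak stood 84 bp from its start with no other protein-coding start within 500 bp. The Cyt-c-d summit was nearer to CG31808, at 68 bp, than to Cyt-c-d at 302 bp, and that of levy nearer to wmd, at 36 bp, than to levy at 215 bp. With blw, complex V has a bound catalytic-head subunit while ATPsynbeta, its partner in that head, has no ranked peak. Such a lack was about as frequent among the 88 genes as among all genes, of which 83.0% and 82.9% had a ranked peak.

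The list of the tricarboxylic acid cycle, like the others drawn up with results of these data known, had the highest share of the lists. It leaves out succinate dehydrogenase, whose genes were counted as complex II and were not bound. Bound were 5 of its 12 genes (41.7%, against 11.3% of all genes). Besides Fum1, whose peak is that of ND-ASHI, these were Idh3g with 81.6 in replicate 1 and 93.1 in replicate 2 (87.4 ± 8.09, combined 186) and Idh3b with 47.5 and 45.6 (46.5 ± 1.28, combined 94.5), subunits of the NAD-dependent isocitrate dehydrogenase. Idh, the NADP-dependent enzyme, had 34.3 and 34.0 (34.2 ± 0.210, combined 62.6), and Scsalpha1, a succinyl-CoA synthetase subunit, had 35.2 and 34.1 (34.7 ± 0.754, combined 61.4). In each of these 4 the replicates lay closer together than at ND-24, ND-51 and COX8. At ND-ASHI (SD 6.12) and ND-MWFE (SD 1.94), however, they lay closer together than at Idh3g (SD 8.09). Idh3a, the catalytic subunit of the enzyme of Idh3b and Idh3g, was not bound, with 15.4 and 19.5 (17.4 ± 2.95). The Idh3g peak also lay 188 bp from a TSS of CG4743, and no other protein-coding start was near those of Idh3b, Idh and Scsalpha1.

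Among 8 assembly factors 2 were bound, against 11.3% of all genes. With 8 genes this count rests on few peaks and does not set assembly factors apart from genes in general. CIA30, a complex I assembly factor, had 413 in replicate 1 and 420 in replicate 2 (417 ± 4.68, combined 810), above every gene of the 88, at a peak 119 bp from its start and 101 bp from that of CG7601. Ttc19, which acts in complex III, had 45.2 and 38.8 (42.0 ± 4.56, combined 80.2), 109 bp from its start and 98 bp from that of Acn. Among 7 regulators of mitochondrial or respiratory genes Dref, the DRE-binding factor, was bound (14.3%, close to the 11.3% of all genes). It had 53.6 and 39.1 (46.4 ± 10.3, combined 90.0), at a summit 81 bp from its start and 3 bp from that of the ribosomal protein gene RpL13.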

How the data were processed

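ChIP-seq of CG16779-eGFP was carried out on embryos aged 8 to 24 hours in 2 biological replicates, with chromatin sonicated to 200 to 800 bp per the labels. Peak lists on dm6 were used as deposited by the authors. Their values are the signal of each peak on the peak caller's scale and the −log10 of the IDR, which the authors deposited in the ranked list. Aligner, peak caller, depth and the use of a control are named in none of the sources used here, so how far signal depends on them is unknown, and a control library was not analysed here. The 2 unnamed signal columns of that list were assigned to replicates by exact matches of interval and signal to their own ranked lists (106479 and 107258 of 136703 peaks, with 0 to the other replicate). Conservative peaks on the arms (2516) and ranked peaks (135475) were placed against TSSs of Ensembl release 115. Complexes, L forms, motifs and pathway lists were described by counts and medians, with no test. In those lists 38 of 41 symbols matched.

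The genes named were every bound gene, the 5 unbound genes with the highest combined signal, the highest and lowest of each complex, bound genes of the pathway lists and genes starting within 500 bp of a named summit. ND-ACP, COX5A, COX6AL, COX7B, COX7CL, ND-B14.5AL, SdhC, SdhD, UQCR-C1, Idh3a, the L pairs and genes without a ranked peak were named after their values were seen. The members and all lists were chosen with earlier results of these data known. The counting was checked on simulated data. Python 3.11.15, numpy 2.4.6, pandas 2.3.3 and matplotlib 3.10.9 were used. Alternatives were the list from pooled reads, each replicate alone, the strongest 1258 conservative peaks, distances of 250 and 1000 bp, the 5'-most TSS and nearest-gene counting.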

Additional observations from a re-analysis of the deposited data

How the results depend on the processing

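Against 7 bound genes (4 of complex I, 3 of complex IV), the number was 3 in the strongest 1258 conservative peaks and 3 with nearest-gene counting (2 of complex I and 1 of complex IV each), 5 within 250 bp, 10 within 1000 bp (1 of complex V), 8 in the list from pooled reads (2 of complex V) and the same 7 with 5'-most TSSs. Leaving out 1 replicate gave 3 to 5 genes, with 2 in complex I under both and 1 to 3 in complex IV. Chosen after seeing the data, adding the absent peaks gave 8 (1 of complex V) and all ranked peaks with an IDR up to 0.05 gave 12 (1 of complex III, 3 of complex V). L forms and complex II were at 0 in all of these settings. The share of the 88 lay below that of all genes in each.

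The median combined signal was 35.9 over the 73 of 88 genes with a ranked peak, 36.7 over the 58 of 68 whose symbol does not end in L and 30.9 over the 15 of 20 whose symbol does. In the pooled ranked list the first 2 were 36.4 and 37.6, and with 5'-most TSSs 32.4 and 35.9. All 3 were 30.9, 31.1 and 24.0 within 250 bp (46 of the 88 with a ranked peak) and 45.5, 48.1 and 37.5 within 1000 bp, where the median over all genes was 33.3 and 41.8. With 1 replicate left out they ran from 19.7 to 21.5, 21.2 to 22.95 and 14.3 to 17.0, on the scale of 1 replicate. With the 4 numbered forms moved to the L forms, also chosen after seeing the data, the L median was 27.3. No paired analysis was possible because there was 1 group. With 2 replicates, an unknown depth and whole embryos, a gene without a peak is a gene at which none was detectable here.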
